A study of Mus musculus with 8 samples.

Results

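The genes described here are 40 genes of mitosis and of the spindle checkpoint in primary mouse articular chondrocytes, the cells that make and maintain joint cartilage. They were listed by symbol and kept where the mean over all 8 libraries was at least 1 FPKM, that is fragments scaled to the length of the transcript and to the mapped fragments of the library. All 40 had a row among the 24067 genes of the table and all 40 passed this limit, as did 11612 genes in all. The lowest member was Cenpf with a mean of 1.04 FPKM, then came Cdc25c with 1.35 and Cenpe with 1.39, and 0 members lay outside. The cells came from the knee ends of femur and tibia of ICR mice that were 5 days old, and grew in 10% serum at 3% O2. They were transfected for 24 h with 50 nM of a miR-204 mimic (4 libraries, numbered 1 to 4) or of the control small RNA miR-Ctrl (4 libraries, numbered 1 to 4) and were harvested 24 h later. All 8 libraries thus share the strain, the culture conditions and a transfection, and cells without a transfection were not analysed here. The mimic adds miR-204 from outside, so its level is not that of the cells' own gene. Nothing in the labels says whether the 4 libraries of a group come from separate animals or cultures. P-values measure the spread between these libraries or, where the fit takes the number into account, that of the differences within equal numbers. Either spread may be technical.

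A dividing cell enters mitosis when cyclins A and B activate the kinase CDK1. Kinetochores then bind the chromosomes to the spindle, and the spindle checkpoint, built from MAD and BUB proteins, holds back the anaphase-promoting complex until every chromosome is attached. Once it is released, CDC20 turns the complex on, securin and the cyclins are degraded, the sister chromatids part and the cell is split at the central spindle. In mammals the promoters of many of these genes share a short element, the CHR, read by MuvB complexes, beside CCAAT boxes read by NF-Y. Articular chondrocytes divide little in adult cartilage, while those of newborn mice divide in culture.

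The small RNA that was added is shown first, since its seed decides which transcripts it can pair with. The mature mouse miR-204-5p is given 5′ to 3′, with the seed, bases 2 to 8, in capitals, as RefSeq lists it for build GRCm38.p6 at chr19:22750610-22750631 on the plus strand.
mmu-miR-204-5p: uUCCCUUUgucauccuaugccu
Some mitosis transcripts carried matches to it. A match of 7 or 8 bases was present in the longest annotated 3′ UTR of 6 of the 40 genes (15%), against 2877 of 11193 tested genes with a 3′ UTR (25.7%). Of the 40, 31 had no match of 6 bases or more. These shares were not adjusted for the length of the 3′ UTR. It was 1598 to 6802 bases in the 6 members and 121 to 3283 bases in the 31 with no match. The 8mers lay in Mad2l1 and Ndc80, the 7mers in Cdk1, Ube2c, Nusap1 and Tpx2. The matches of 4 of them are printed in the sense of the transcript, with the match in capitals, because these transcripts could pair with the mimic (GENCODE M21, GRCm38, the assembly of mm10).
Mad2l1, chr6:66540554-66540561, plus strand: caagccacAAAGGGAAtagtattg
Ndc80, chr17:71512905-71512912, minus strand: acacacacAAAGGGAAattcattt
Cdk1, chr10:69337650-69337656, minus strand: tagcagtcAAAGGGAtgcctgaga
Ube2c, chr2:164778389-164778395, plus strand: ccagtgccAAAGGGAcacaggtta
The members with a 7mer or 8mer had log2 fold changes of 0.34 to 0.57 with a median of 0.42, and the 31 members with no match had 0.12 to 0.63 with a median of 0.40. None of the 40 had a lower mean with miR-204.

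Promoters are shown next, for the CHR and the CCAAT boxes named above. Whether these have a part in the joint movement of the genes from one library to the next was not tested. RefSeq windows of 300 bases, 250 before to 50 after the transcription start, were present for 33 members in 36 windows. Those of Kif2c (chr4:117178723-117179022) and Cdca8 (chr4:124936868-124937167), both on the minus strand, lie inside the gene as GENCODE annotates it. There these genes begin at 117182639 and 124939311, so the windows belong to other starts, and both hold a CHR. The search covered both strands for the CHR, spelled TTTGAA or in its other form TTCGAA, for the CCAAT box, spelled CCAAT, and for the E2F core. The E2F core was searched as TTCCCGC, also as the variant TTCGCGC, and finally as the variant TTGGCGC. Matches of different motifs shared bases in 4 member windows. A CHR was found in 29 of the 36 windows (80.6%), against 13.7% of 11860 windows of tested genes and 19.2% of all 32841 windows. A CCAAT box was found in 77.8% of member windows, 37.7% of windows of tested genes and 37.4% of all windows. Both were found together in 72.2% of member windows, 5.54% of windows of tested genes and 7.52% of all windows. The E2F core was found in 16.7%, 14.6% and 8.07% of the same sets. These shares are a description, and a match is not evidence of binding.
The windows of 4 members are shown with all such matches in capitals, chosen to show the CHR and CCAAT pair in a cyclin gene, its kinase, the anaphase activator and the member with the highest fold change (GRCm38.p6).
Ccnb2, chr9:70421505-70421804, minus strand: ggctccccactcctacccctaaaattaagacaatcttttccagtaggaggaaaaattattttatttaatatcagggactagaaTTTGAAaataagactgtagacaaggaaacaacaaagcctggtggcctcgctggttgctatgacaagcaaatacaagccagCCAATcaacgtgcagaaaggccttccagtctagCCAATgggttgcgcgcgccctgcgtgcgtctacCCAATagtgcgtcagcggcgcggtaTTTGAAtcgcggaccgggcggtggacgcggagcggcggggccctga
Cdk1, chr10:69352863-69353162, minus strand: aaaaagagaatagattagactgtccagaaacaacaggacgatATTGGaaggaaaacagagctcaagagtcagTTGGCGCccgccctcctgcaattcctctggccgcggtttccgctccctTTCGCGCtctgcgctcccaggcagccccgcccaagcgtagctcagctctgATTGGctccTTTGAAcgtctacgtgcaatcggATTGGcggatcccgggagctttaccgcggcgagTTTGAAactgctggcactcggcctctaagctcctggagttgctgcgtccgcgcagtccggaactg
Cdc20, chr4:118437294-118437593, minus strand: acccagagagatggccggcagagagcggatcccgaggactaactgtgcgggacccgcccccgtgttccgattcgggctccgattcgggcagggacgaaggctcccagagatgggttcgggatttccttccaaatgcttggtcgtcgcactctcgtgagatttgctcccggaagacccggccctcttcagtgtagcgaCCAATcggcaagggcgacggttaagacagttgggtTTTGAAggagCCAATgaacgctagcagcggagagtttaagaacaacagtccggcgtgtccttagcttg
Cenpa, chr5:30666636-30666935, plus strand: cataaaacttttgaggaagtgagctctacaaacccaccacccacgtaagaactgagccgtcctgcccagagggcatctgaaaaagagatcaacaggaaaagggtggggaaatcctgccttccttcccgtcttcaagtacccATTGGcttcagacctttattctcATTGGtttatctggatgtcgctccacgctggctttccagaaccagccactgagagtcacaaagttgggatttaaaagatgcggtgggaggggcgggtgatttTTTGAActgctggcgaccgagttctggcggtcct
Counting the start base as 1 and the base before it as -1, the CHR began at 5 in Ccnb2, at -15 in Cdk1, at -18 in Cdc20 and at 17 in Cenpa, with a further one at -167 in Ccnb2 and at -71 in Cdk1. The nearest CCAAT box upstream of the CHR closest to the start began at -21 in Ccnb2, at -48 in Cdk1, at -53 in Cdc20, which has a further one at -8, and at -86 in Cenpa. Of the 39 CHR matches in member windows, 27 began within 50 bases of the start. No CHR and no CCAAT box was found in the window of 5 members, namely Mad2l1, Pttg1, Birc5, Nuf2 and Nusap1, which says only that these letters are not in these windows.

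**Figure D1:**
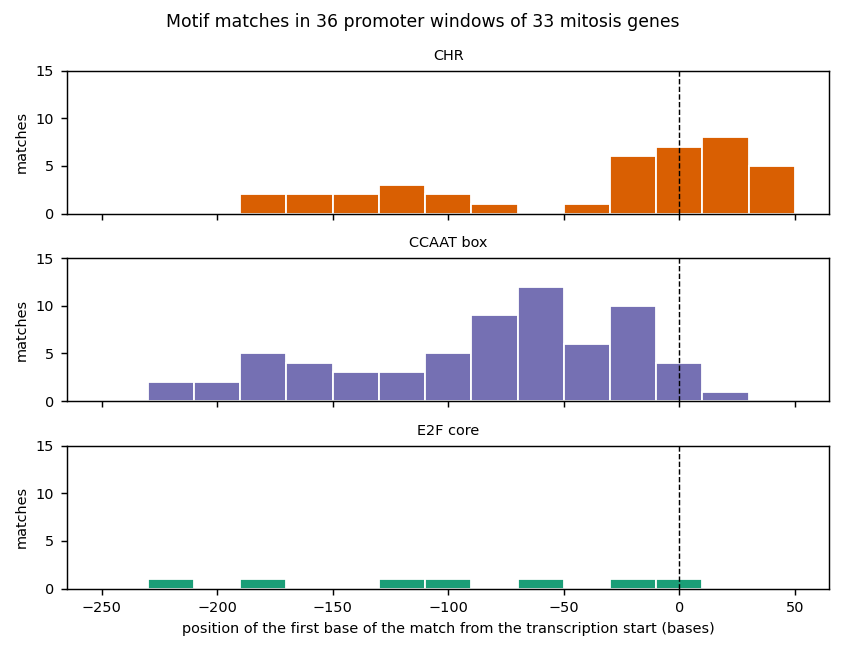
Position of motif matches in the 36 promoter windows of 33 mitosis genes, as the number of matches per bin of 20 bases (y axis) against the distance of the first base of the match from the transcription start (x axis, dashed line at the start); genes with 2 windows count in both. CHR matches gather around and after the start, where 27 of 39 lie within 50 bases of it, and CCAAT boxes lie mostly upstream.

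The comparison of miR-204 with miR-Ctrl gave a higher mean for all 40 members, from 1.09-fold (Bub3) to 1.66-fold (Cenpa) with a median of 1.44-fold in mean FPKM. Within libraries of equal replicate number the miR-204 library was higher in 160 of 160 cases, with ratios between 1.03 and 2.38. These cases are 40 genes in only 4 pairs of libraries. The genes moved together between libraries, so the cases are not independent. Of all tested genes, 33.9% were higher in 4 of 4 such pairs. After each library was centred on its median over tested genes, 39 of 40 members were higher in all 4 pairs, and 18.2% of all tested genes were. On the log2(FPKM + 1) scale, which understates changes of genes near 1 FPKM, the median log2 fold change of the members was 0.41, and that of all tested genes was 0.064. All 40 were above 0, as were 74.1% of all tested genes, or 50.1% of them with centred libraries.

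Whether this exceeded the spread between libraries depended on whether the replicate number was taken into account. In limma without the number, 0 of 40 members passed an adjusted p of 0.05 in either direction (adjusted p between 0.557 and 0.767), and 0.0258% of all tested genes were called higher and 0.181% lower. At an unadjusted p under 0.05, 4 members and 6.57% of tested genes were higher. With the number as a block, 36 members rose and 0 fell (adjusted p down to 0.00997), where 12.4% of all tested genes rose and 2.83% fell. At an unadjusted p under 0.05 with the block, 40 of 40 members and 29.9% of tested genes were higher. With the block and centred libraries 25 members rose and 0 fell, beside 4.99% and 4.32% of tested genes. The 4 members that did not pass with the block were Aurka (adjusted p = 0.0837), Bub3 (0.0685), Cdc25c (0.0647) and Kif23 (0.0519). The count with the block depended on which pairs entered the fit, and 10 members passed without replicate 1, 37 without replicate 2, 9 without replicate 3 and 0 without replicate 4, where 38 of 40 were higher at an unadjusted p under 0.05 and 42 of all tested genes were called higher. With no filter on low values, which raised the number of tested genes to 18849, 6 passed with the block. Apart from the 42, the number of all tested genes called in these reduced or unfiltered fits is not given here. Whether the members changed more than all genes between these fits is therefore not shown.

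The level of these genes varied strongly between libraries of the same group. Together the 40 genes had 264, 234, 257 and 414 FPKM in miR-204 replicates 1 to 4, against 217, 180, 152 and 296 FPKM in miR-Ctrl replicates 1 to 4. Replicate 4 was the highest library of its group for 39 of 40 members with miR-204 and for 39 of 40 with miR-Ctrl, Bub3 being the exception in both. The lowest library was replicate 2 for 29 members with miR-204 and replicate 3 for 32 members with miR-Ctrl. The highest miR-204 library exceeded the lowest by a median of 1.98 times over the members, and the highest miR-Ctrl library exceeded the lowest by 2.24 times. In all 40 members this spread within miR-Ctrl was larger than the fold between the group means. The groups overlapped in 39 members and did not in Bub3, while 4.32% of tested genes were higher without overlap. In bulk RNA, a larger share of dividing cells and more of these transcripts per cell cannot be told apart.

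**Figure D2:**
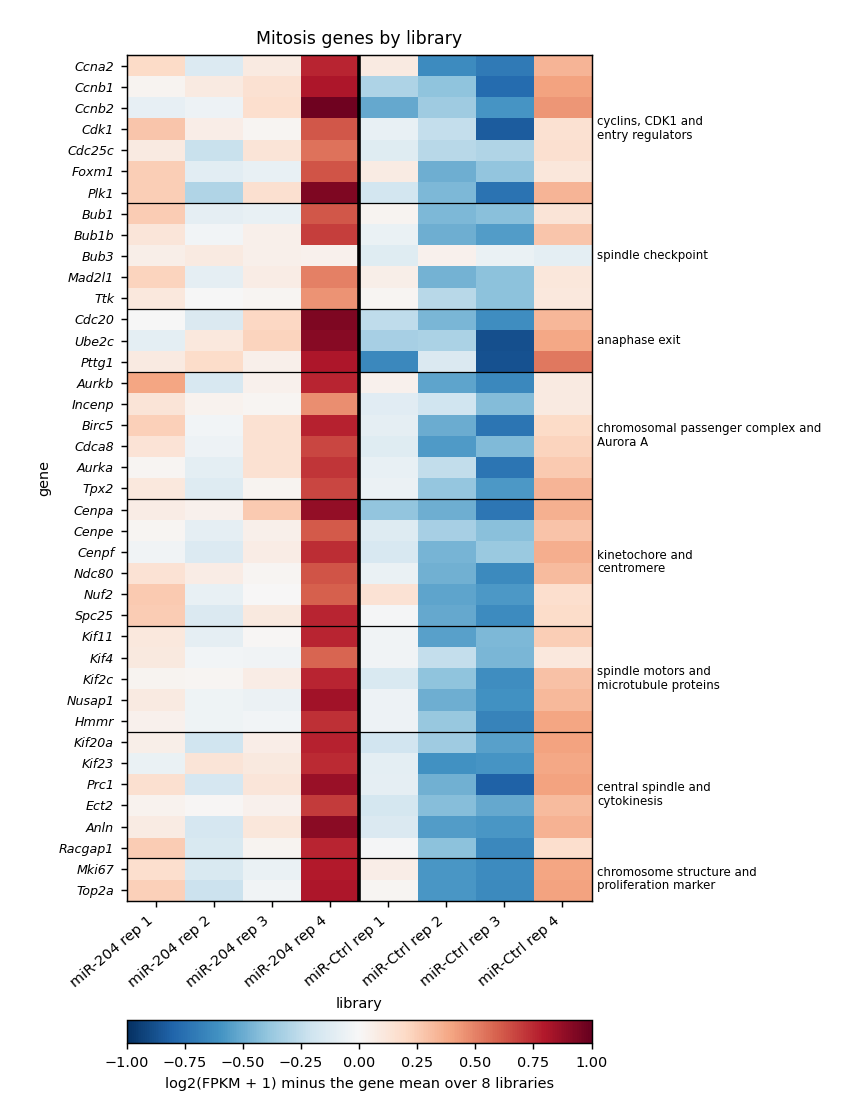
Level of the 40 mitosis genes (rows, grouped by role) in the 4 miR-204 libraries (left) and the 4 miR-Ctrl libraries (right), as log2(FPKM + 1) minus the mean of the gene over the 8 libraries. Replicate 4 is the highest library of both groups in all rows but Bub3, and each miR-204 column is redder than the miR-Ctrl column of the same number.

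Counts per role are to be read beside the 12.4% of all tested genes that rose with the block, or 4.99% with centred libraries. Cyclins, CDK1 and the regulators of mitotic entry came first among the roles. Ccnb2, a B-type cyclin that activates CDK1, had 6.65, 6.78, 8.10 and 14.9 FPKM in miR-204 libraries 1 to 4, against 4.67, 5.33, 4.36 and 9.97 FPKM in miR-Ctrl libraries 1 to 4. Its miR-Ctrl replicate 4 was above 3 of the miR-204 libraries, and its log2 fold change was 0.51 ± 0.298 (SE without the block, adjusted p = 0.685) and ± 0.075 with the block (limma adjusted p = 0.0135). Ccnb1, the other main mitotic cyclin, had 6.54, 6.86, 7.21 and 11.9 FPKM with miR-204, against 4.97, 4.60, 3.34 and 8.80 FPKM with miR-Ctrl. It rose with the block (0.54, adjusted p = 0.0205), by 2.16 times within replicate 3 and by 1.32 to 1.49 times within the others. Cdk1, the kinase that drives entry into mitosis, had 10.4, 8.85, 8.53 and 13.5 FPKM in miR-204 libraries, against 7.95, 6.99, 4.28 and 9.47 FPKM in miR-Ctrl libraries, so that only miR-Ctrl replicate 4 reached the miR-204 range. It rose with the block (0.49, adjusted p = 0.0218), and its 3′ UTR holds a 7mer. Foxm1, a transcription factor of late cell cycle genes, had 4.50, 3.32, 3.40 and 6.19 FPKM with miR-204, against 3.90, 2.31, 2.52 and 4.02 FPKM with miR-Ctrl. It rose with the block (0.35, adjusted p = 0.0212), with ratios within pairs of 1.15 to 1.54. Of the other members of this group, the mitotic kinase gene Plk1 (0.52, adjusted p = 0.0332) and the cyclin gene Ccna2 (0.45, adjusted p = 0.0366) rose with the block, whereas Cdc25c, the phosphatase that activates CDK1, was at 1.58 ± 0.571 FPKM with miR-204 and at 1.12 ± 0.326 FPKM with miR-Ctrl (SD, n = 4 each) and did not pass.

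Among spindle checkpoint genes, 4 of 5 rose with the block. Mad2l1, which encodes the MAD2 protein that holds CDC20, had 7.78, 6.06, 6.89 and 9.67 FPKM in miR-204 libraries, against 6.83, 4.41, 4.64 and 7.10 FPKM in miR-Ctrl libraries (0.36, block adjusted p = 0.0163). It carries one of the 8mers. Bub1, a checkpoint kinase, had 2.06, 1.41, 1.44 and 2.95 FPKM with miR-204, against 1.62, 0.886, 0.918 and 1.81 FPKM with miR-Ctrl (0.36, block adjusted p = 0.0192). Bub1b, the BUBR1 subunit of the checkpoint complex, had 2.77, 2.40, 2.59 and 4.60 FPKM, against 2.32, 1.48, 1.36 and 3.21 FPKM with miR-Ctrl (0.42, block adjusted p = 0.0201). Ttk, the kinase that starts checkpoint signalling at kinetochores, had 1.59, 1.40, 1.44 and 2.29 FPKM with miR-204, against 1.43, 0.986, 0.811 and 1.58 FPKM with miR-Ctrl (0.28, block adjusted p = 0.0458). In all 4 genes the groups overlapped. The miR-Ctrl libraries of replicates 1 and 4 reached into the miR-204 range in Mad2l1, Bub1 and Ttk, and only that of replicate 4 did in Bub1b. Bub3, which brings BUB1 and BUBR1 to kinetochores, stood apart from them. It was the most abundant member per length and had 35.8, 36.8, 35.7 and 35.5 FPKM in miR-204 libraries, against 31.6, 35.4, 32.8 and 32.2 FPKM in miR-Ctrl libraries. Every miR-204 library was above every miR-Ctrl library, yet the difference was the smallest of the 40 (log2 fold change 0.12 ± 0.052, adjusted p = 0.575) and it did not pass with the block. Its libraries spanned 1.04 times within miR-204 and 1.12 times within miR-Ctrl, the narrowest range of any member.

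The regulators of anaphase all rose with the block. Cdc20, the activator of the anaphase-promoting complex, had 9.92, 8.92, 11.6 and 19.9 FPKM in miR-204 libraries, against 8.19, 6.98, 6.10 and 12.8 FPKM in miR-Ctrl libraries (0.50, block adjusted p = 0.0253). Pttg1, which encodes securin, had 8.99, 9.66, 8.68 and 15.4 FPKM, against 5.00, 7.46, 4.13 and 12.5 FPKM with miR-Ctrl (0.56, block adjusted p = 0.0260). Its ratio within replicate 1 was 1.80, the highest of any member there, in a pair in which the median over members was 1.21. Ube2c, the ubiquitin-conjugating enzyme of the complex, had 16.7, 19.4, 21.1 and 34.7 FPKM with miR-204, against 14.0, 14.2, 9.29 and 23.8 FPKM with miR-Ctrl (0.57, block adjusted p = 0.0379). It did not pass with the block and centred libraries (adjusted p = 0.0553), and for each of these 3 genes the miR-Ctrl replicate 4 library was above 3 of the miR-204 libraries.

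The chromosomal passenger complex, which corrects wrong attachments and then guides cytokinesis, rose as a whole with the block. Cdca8, which encodes borealin, had 7.01, 6.04, 7.08 and 10.6 FPKM in miR-204 libraries, against 5.67, 3.91, 4.36 and 7.47 FPKM in miR-Ctrl libraries. Its block adjusted p of 0.00997 was the lowest of the 40 (log2 fold change 0.46 ± 0.059), and it passed in 8 of 9 fits with the block, failing without replicate 4. Aurkb, the kinase of the complex, had 5.76, 3.61, 4.32 and 7.71 FPKM with miR-204, against 4.32, 2.57, 2.30 and 4.47 FPKM with miR-Ctrl (0.52, block adjusted p = 0.0125). Birc5, which encodes survivin, had 12.2, 10.0, 11.4 and 18.1 FPKM, against 9.52, 6.94, 5.77 and 11.8 FPKM with miR-Ctrl (0.56, block adjusted p = 0.0141). Incenp, the scaffold of the complex, had 6.18, 5.76, 5.67 and 8.07 FPKM with miR-204, against 5.08, 4.74, 3.88 and 6.02 FPKM with miR-Ctrl (0.32, block adjusted p = 0.0150). The other Aurora kinase gene, Aurka, was at 4.91 ± 1.61 FPKM with miR-204 and at 3.51 ± 1.23 FPKM with miR-Ctrl (SD, n = 4 each). Its ratio was 2.26 within replicate 3 but 1.09, 1.14 and 1.45 within replicates 1, 2 and 4, and it passed in 0 of 9 fits with the block. Tpx2, the spindle protein that activates Aurora A, rose with the block (0.34, adjusted p = 0.0334) but did not pass with centred libraries (adjusted p = 0.0578).

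All 6 genes of the kinetochore and centromere rose with the block. Cenpa, the histone H3 variant that marks centromeres, had the highest fold change of the 40. It had 4.92, 4.80, 5.75 and 9.35 FPKM in miR-204 libraries, against 3.28, 3.02, 2.42 and 6.21 FPKM in miR-Ctrl libraries (0.63 ± 0.265 without the block, adjusted p = 0.567; ± 0.090 with it, adjusted p = 0.0125). Its ratio within pairs was never below 1.50. The NDC80 complex, which grips microtubules, is represented by 3 subunits. Spc25 had 8.21, 6.01, 7.26 and 12.1 FPKM with miR-204, against 6.66, 4.43, 4.00 and 7.78 FPKM with miR-Ctrl (0.48, block adjusted p = 0.0163). Ndc80, with the other 8mer, had 3.40, 3.19, 3.04 and 5.14 FPKM, against 2.80, 1.85, 1.56 and 3.96 FPKM with miR-Ctrl (0.43, block adjusted p = 0.0226). Nuf2 had 3.70, 2.73, 2.93 and 4.94 FPKM with miR-204, against 3.33, 1.72, 1.64 and 3.41 FPKM with miR-Ctrl (0.39, block adjusted p = 0.0270). In these genes too miR-Ctrl replicate 4 lay inside the miR-204 range. Cenpe, a kinetochore motor, and Cenpf, a large kinetochore protein, were near 1 FPKM and rose with the block (0.30 and 0.32, adjusted p = 0.0393 and 0.0380), though neither passed with centred libraries.

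Spindle motors and microtubule proteins rose in 5 of 5 genes with the block. Nusap1, which bundles spindle microtubules, had 4.58, 4.08, 4.03 and 8.34 FPKM in miR-204 libraries, against 4.04, 2.73, 2.43 and 5.55 FPKM in miR-Ctrl libraries (0.41, block adjusted p = 0.0196). Kif11, the motor that pushes the spindle poles apart, had 2.78, 2.29, 2.53 and 4.94 FPKM with miR-204, against 2.42, 1.41, 1.58 and 3.16 FPKM with miR-Ctrl (0.39, block adjusted p = 0.0212). Kif2c, a kinesin that shortens microtubules, had 3.02, 2.99, 3.15 and 5.70 FPKM, against 2.55, 1.99, 1.57 and 3.84 FPKM with miR-Ctrl (0.44, block adjusted p = 0.0226). With miR-204, replicates 1 to 3 of Kif2c lay within a narrow band and replicate 4 stood far above it. Kif4, a motor on chromosome arms, had 1.73, 1.51, 1.49 and 2.83 FPKM with miR-204, against 1.50, 1.16, 0.865 and 1.75 FPKM with miR-Ctrl (0.31, block adjusted p = 0.0436). It did not pass with centred libraries, nor did Hmmr, a spindle protein that rose with the block alone (0.35, adjusted p = 0.0450).

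In the central spindle and cytokinesis group, 5 of 6 genes rose with the block. Ect2, the exchange factor that activates RhoA at the cell equator, had 2.71, 2.65, 2.73 and 4.86 FPKM in miR-204 libraries, against 2.21, 1.69, 1.54 and 3.51 FPKM in miR-Ctrl libraries (0.40, block adjusted p = 0.0169). Anln, which encodes the scaffold anillin of the contractile ring, had 6.60, 5.39, 6.79 and 12.5 FPKM with miR-204, against 5.50, 3.88, 3.81 and 8.16 FPKM with miR-Ctrl (0.47, block adjusted p = 0.0171). Racgap1, a subunit of centralspindlin, had 8.04, 5.81, 6.73 and 11.9 FPKM, against 6.51, 4.71, 3.86 and 7.52 FPKM with miR-Ctrl (0.45, block adjusted p = 0.0212). Its partner in centralspindlin, the kinesin gene Kif23, was at 3.60 ± 1.24 FPKM with miR-204 and at 2.42 ± 1.17 FPKM with miR-Ctrl (SD, n = 4 each) and did not pass, with ratios of 1.03, 2.09, 2.01 and 1.35 within replicates 1 to 4. The 1.03 was the lowest ratio of any member in any pair. Kif20a, which carries the passenger complex to the midzone, had 9.87, 8.09, 9.96 and 16.8 FPKM with miR-204, against 8.15, 7.18, 6.18 and 12.8 FPKM with miR-Ctrl (0.34, block adjusted p = 0.0334). Prc1, which crosslinks midzone microtubules, rose with the block (0.49, adjusted p = 0.0362), and neither of these last genes passed with centred libraries.

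Mki67 and Top2a are widely used to mark dividing cells. Mki67, which encodes the Ki-67 protein that coats mitotic chromosomes, had 4.47, 3.36, 3.64 and 7.38 FPKM in miR-204 libraries, against 4.09, 2.24, 2.14 and 5.39 FPKM in miR-Ctrl libraries. Its miR-Ctrl replicates 1 and 4 were above the lower miR-204 libraries, and its unblocked adjusted p of 0.767 was the highest of the 40 (0.37 ± 0.287). With the block it rose (± 0.077, adjusted p = 0.0291), but not with centred libraries (adjusted p = 0.0525). Top2a, the topoisomerase that untangles chromosomes, had 12.1, 8.55, 9.86 and 18.5 FPKM with miR-204, against 10.2, 6.41, 6.13 and 13.7 FPKM with miR-Ctrl. Its miR-Ctrl replicate 4 was above 3 of the miR-204 libraries, and it rose with the block (0.40 ± 0.063, adjusted p = 0.0152) and also with centred libraries (adjusted p = 0.0222).

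**Figure D3:**
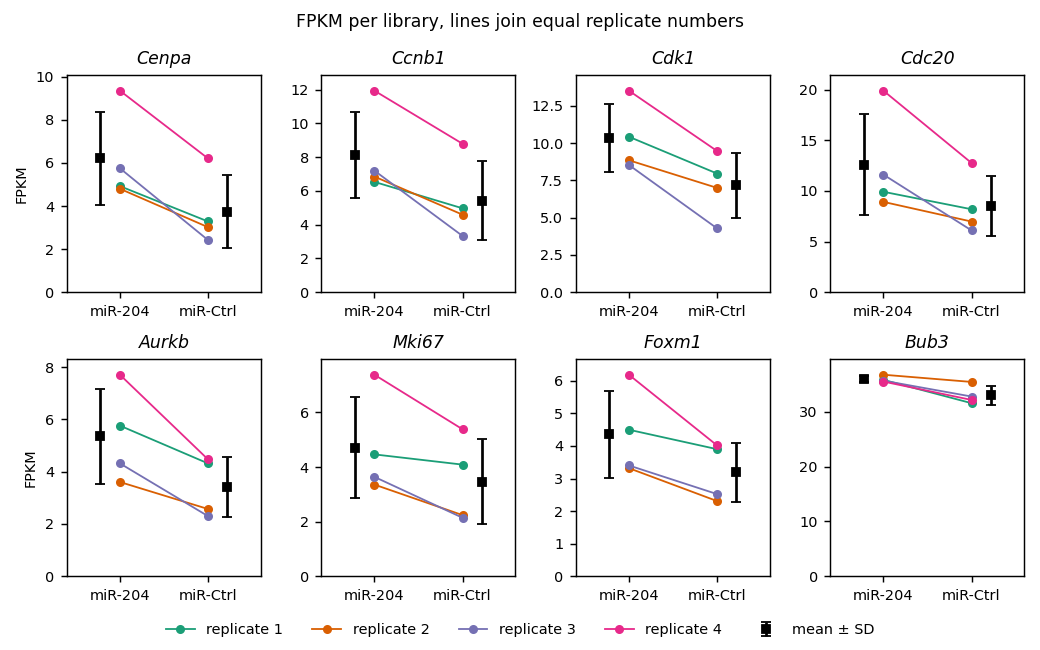
FPKM of 8 members in each library (points, y axis) with miR-204 on the left and miR-Ctrl on the right; lines join libraries of equal replicate number and black squares show the group mean ± SD (n = 4). Every line falls towards miR-Ctrl, and replicate 4 is the highest line in all panels but Bub3.

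The standard errors show how the replicate number entered these results. Over the 40 members the standard error of the log2 fold change had a median of 0.238 without the block and of 0.077 with it, around the same fold changes. The fold changes themselves spanned 0.12 to 0.63, and Cenpa, Ube2c, Birc5, Pttg1 and Ccnb1 were the 5 highest. The lowest after Bub3 and Cdc25c were Ttk, Cenpe and Kif4, which have low levels, and with a pseudocount of 0.1 in place of 1 these 3 were at 0.47, 0.50 and 0.48, while the median of the 40 was 0.54. Under that pseudocount Ttk did not pass with the block (adjusted p = 0.0501).

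**Figure D4:**
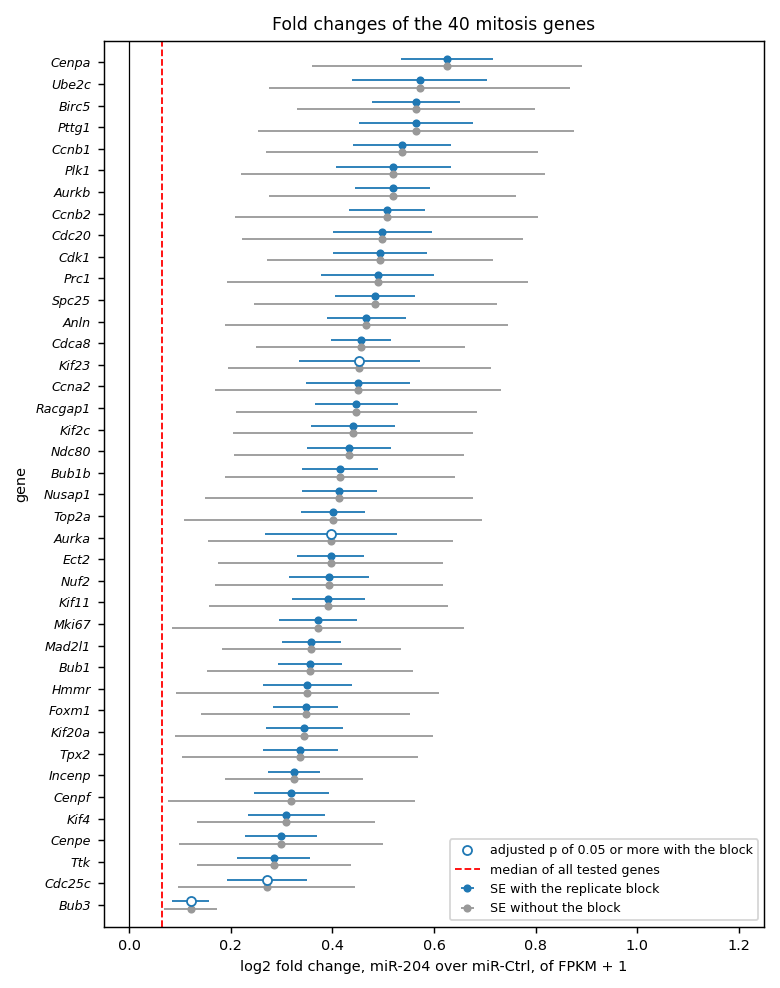
Log2 fold change (x axis, miR-204 over miR-Ctrl, FPKM + 1) of the 40 members (y axis), with the standard error from the fit with the replicate block (blue) and without it (grey); open circles did not pass with the block, and the dashed line is the median of all 11612 tested genes. All 40 lie to the right of 0.064, from Bub3 at 0.12 to Cenpa at 0.63, and 4 circles are open.

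The size of the difference was not the same in the 4 pairs. The median log2 difference over the members was 0.21, 0.37, 0.63 and 0.44 within replicates 1 to 4, where that of all tested genes was 0.052, 0.044, 0.097 and 0.069. Replicate 3 gave the highest ratio of the 4 pairs for 35 of 40 members, and replicate 1 the lowest for 31. The miR-Ctrl library of replicate 3 was also the lowest of its group for 32 members. S phase genes, which copy the DNA before mitosis, had medians of 0.18, 0.13, 0.35 and 0.28 in the same pairs.

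**Figure D5:**
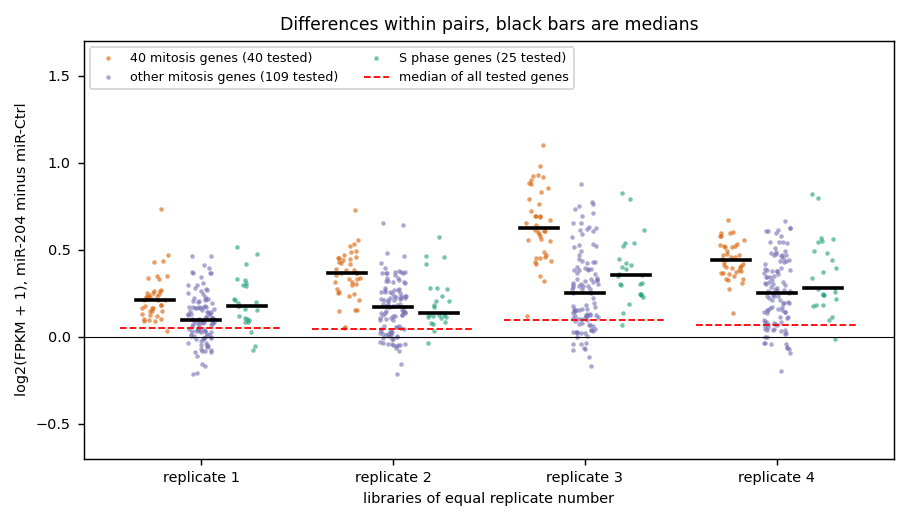
Difference in log2(FPKM + 1) between the miR-204 and the miR-Ctrl library of equal replicate number (y axis) for the 40 mitosis genes, 109 other tested mitosis genes and 25 S phase genes (points), by replicate number (x axis); black bars are medians and red dashes the median of all tested genes. The 40 genes lie above 0 in every pair, with medians of 0.21, 0.37, 0.63 and 0.44.

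Other genes of the same processes were read from lists. Of 121 further mitosis genes in 5 lists, 109 were tested. In limma without the block 0 passed. At an unadjusted p under 0.05 in that fit, 9 of the 109 were higher and 0 lower, where 6.57% of all tested genes were higher. With the block 41 rose and 0 fell, where 12.4% of tested genes rose and 2.83% fell. Their median log2 fold change was 0.18, with 102 of 109 above 0, where 74.1% of all tested genes lay above 0. With the block and centred libraries 24 rose, where 4.99% of tested genes did.

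The other kinetochore and centromere genes had 10 of 32 higher with the block, among them Cenpp (3.20 ± 0.787 FPKM with miR-204 and 2.14 ± 0.589 FPKM with miR-Ctrl, SD, n = 4 each, as in all such pairs here; adjusted p = 0.00644) and Cenph (0.43, adjusted p = 0.0141), which are subunits of the inner kinetochore. Zwint, which links the outer kinetochore to the checkpoint, was at 36.4 ± 3.57 FPKM with miR-204 and 28.3 ± 4.20 FPKM with miR-Ctrl (0.36, adjusted p = 0.00644). Of 17 condensin, cohesin and separase genes 4 rose, including the condensin genes Ncaph (0.42, adjusted p = 0.0108) and Ncapg (0.30, adjusted p = 0.0193) and the cohesin protector gene Cdca5 (0.41, adjusted p = 0.0212), while the median of this list was 0.082. The anaphase-promoting complex list had a median of 0.077, close to the 0.064 of all tested genes, and 2 of its 17 genes rose, a share near the 12.4% of all tested genes. These were Anapc15 (0.23, adjusted p = 0.0284) and Fbxo5 (0.45, adjusted p = 0.0266), an inhibitor of the complex. Fzr1, its activator after mitosis, did not pass (0.15, adjusted p = 0.0745). Of 25 other spindle and kinesin genes 12 rose, with Ckap2 (0.47, adjusted p = 0.0150), Gtse1 (0.40, adjusted p = 0.0169) and Kif22 (0.43, adjusted p = 0.0169) at the lowest p. Of 18 other mitotic kinase, phosphatase and cytokinesis genes 13 rose. Cdca3, a protein of mitotic entry, was at 11.4 ± 3.91 FPKM with miR-204 and 7.02 ± 2.61 FPKM with miR-Ctrl (0.63, adjusted p = 0.00427), and the centrosome kinase gene Nek2 (0.45, adjusted p = 0.0128) and the CDK-binding gene Cks1b (0.24, adjusted p = 0.0162) rose also. All these counts stand beside the 12.4% of all tested genes that rose with the block. With the block and centred libraries 7, 4, 1, 5 and 7 genes of the 5 lists rose, in the order given, where 4.99% of all tested genes did.

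Among genes of the MuvB, MYB and E2F regulators the counts were near those of all genes. Of the 14 tested 2 rose and 1 fell with the block, beside 12.4% and 2.83% of all tested genes. The 2 were E2f8 (0.42, adjusted p = 0.0132) and Rbbp4 (0.14, adjusted p = 0.0415), of which Rbbp4 did not pass with centred libraries (adjusted p = 0.179). Rbl2, which encodes a pocket protein that joins MuvB in resting cells to repress cell cycle genes, had 5.14, 5.25, 4.09 and 4.86 FPKM in miR-204 libraries, against 6.25, 6.94, 4.65 and 6.04 FPKM in miR-Ctrl libraries. The groups overlapped because miR-Ctrl replicate 3 was low, but the miR-204 library was lower in 4 of 4 pairs. Rbl2 fell with the block (-0.25, adjusted p = 0.0204) and with centred libraries (adjusted p = 0.00997), though not without the block (adjusted p = 0.607). Any part of Rbl2 in the rise of the mitosis genes was not tested. Among 25 S phase genes 13 rose with the block (median 0.22), where 12.4% of tested genes did, and 9 rose with the block and centred libraries, where 4.99% did. In this list Ccne1, the cyclin of S phase entry (0.54, adjusted p = 0.00367), Tk1, thymidine kinase (0.65, adjusted p = 0.00676), and Gmnn, an inhibitor of relicensing (0.44, adjusted p = 0.00676), had the lowest p.

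Facts of the libraries that touch these results are as follows. FPKM summed to between 429662 and 483721 in miR-204 libraries and between 416560 and 490818 in miR-Ctrl libraries. The files give no read totals, but steps between low values put the depth relative to miR-Ctrl replicate 1 at 0.798 and 0.772 in the replicate 2 libraries with miR-204 and miR-Ctrl and at 0.929 to 0.962 in the other 5, so low values of replicate 2 are the least precise. Chondrocyte markers were abundant (7 genes, 10559 to 28372 FPKM in sum with miR-204 and 10629 to 35999 FPKM with miR-Ctrl), and their sum was lower with miR-204 in 4 of 4 pairs. Of the 7, Hapln1, which encodes the link protein of cartilage matrix, and Comp, a matrix protein, fell with the block and 0 rose, and 0 passed without it. Hapln1 was at 143 ± 49.8 FPKM with miR-204 and at 303 ± 121 FPKM with miR-Ctrl (SD, n = 4 each; block adjusted p = 0.00136), and Comp was at 1316 ± 460 FPKM and 1495 ± 551 FPKM in the same order (block adjusted p = 0.0401). The 7 macrophage and osteoclast markers summed to 52.0, 44.2, 19.9 and 23.6 FPKM in miR-204 libraries 1 to 4, against 38.6, 39.4, 11.2 and 16.8 FPKM in miR-Ctrl libraries 1 to 4. This sum was higher with miR-204 in 4 of 4 pairs and was highest in replicates 1 and 2 of both groups. Ctsk alone had 29.9 and 22.8 FPKM of it in miR-204 replicates 1 and 2. In miR-Ctrl replicates 1 and 2 it had 25.6 and 19.0 FPKM. Of 4 tested markers Cd68, Acp5 and Ctsk rose with the block and Cd14 did not pass (0.86-fold in mean FPKM, block adjusted p = 0.815). Adgre1 (listed as Emr1), Csf1r and Ptprc were at 0.193 FPKM or less in every library, and Emr1 was lower with miR-204 in 4 of 4 pairs. Smooth muscle and pericyte markers (5 genes) summed to 227 to 346 FPKM with miR-204 and 138 to 231 FPKM with miR-Ctrl, nearly all of it Acta2 and Cspg4. Acta2 rose both without and with the block. Cspg4 was higher with miR-204 in 1 of 4 pairs and did not pass (0.97-fold in mean FPKM, block adjusted p = 0.952). Myh11, Rgs5 and Notch3 had means under 1 FPKM and were not tested. The part of these cell types in the rise of the mitosis genes was not tested. Endothelial, erythroid and skeletal muscle markers were at 0.330 FPKM or less in every library, neutrophil and marrow markers summed to 5.72 to 12.2 FPKM with miR-204 and 2.56 to 13.0 FPKM with miR-Ctrl, and fibroblast markers to 1502 to 3458 FPKM and 1562 to 3310 FPKM. Lyz2 made up most of the neutrophil and marrow sum. It was higher with miR-204 in 4 of 4 pairs but did not pass (block adjusted p = 0.0561). Of 5 fibroblast markers Thy1 alone rose with the block (0.42, adjusted p = 0.0330), and 0 fell.

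Reads of some members may be shared with other genes. Exons of 12 members overlap those of another annotated gene, 10 of them on the opposite strand, among them Ccna2, Ube2c, Kif4, Kif20a, Prc1 and Cdc20, and pseudogenes are named after Ccnb1, Ccnb2 and Kif4. The libraries were stranded, but no source used here states whether strand entered the estimates, so the levels of these members are uncertain to that extent.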

How the data were processed

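In all, 8 stranded mRNA libraries were sequenced, per the labels' protocols. The authors deposited FPKM values, 1 for each gene in each library. TopHat, Cufflinks 2.2.1 and mm10 appear in the submitters' processing notes. No source used here gives the TopHat version, the Cufflinks mode or filters. FPKM are not counts, so limma 3.58.1 in R 4.3.3 was run on log2(FPKM + 1) over the 11612 genes whose mean reached 1 FPKM, with a trended prior and Benjamini-Hochberg adjustment at 0.05, two-sided, and was tested on simulated data. The replicate number was left out of the first fit and used as a block in the alternative. Libraries of equal number deviated from their group means together (r = 0.44, 0.82, 0.76 and 0.62, across genes). Between unlike numbers r lay between -0.65 and 0.32, the highest for replicates 3 and 4. The numbers were therefore taken to pair the libraries. This pairing comes from the data, as the labels give only the number. Alternatives varied scaling, pseudocount, filter, prior and libraries.

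Groups came from the labels' titles. Members and lists were chosen with earlier results of these data known. Full values are given for up to 4 members per role that passed with the block, by smallest p, and for Mki67, Top2a, Cdk1, Ccnb1, Foxm1 and Bub3; of each other list the 3 genes with the smallest block p are named. Seed matches were searched in the longest GENCODE M21 3′ UTR and promoter motifs in RefSeq windows, all matched by gene ID.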

Additional observations from a re-analysis of the deposited data

Results flagged for a closer look

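In 8 of the 80 groups of 4 libraries that were examined (2 groups for each of 40 members), 1 library stood far from the other 3, by a gap that, as a share of the range of the group, exceeds Dixon's critical value for 4 samples. Chance alone gives about 1 such group in 20, and the members are not independent of each other. All 8 concern miR-204 replicate 4 as the highest library. There Ect2 was at 4.86 FPKM with the next library at 2.73, Kif2c at 5.70 with the next at 3.15, Hmmr at 5.83 with the next at 3.24 and Ccnb1 at 11.9 with the next at 7.21. Nusap1 was at 8.34 FPKM with the next at 4.58, Pttg1 at 15.4 with the next at 9.66, Cenpe at 2.57 with the next at 1.42 and Bub1b at 4.60 with the next at 2.77. The miR-Ctrl library of replicate 4 was the highest of its own group for 39 of 40 members, but in 0 members by such a gap.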

How the results depend on the processing

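The direction of all 40 members was the same under all 27 alternatives in which they were tested (a filter at a mean of 5 FPKM leaves 20 of them), and 0 of 1060 member values were lower with miR-204. Much of this was fixed beforehand, because every member was higher within every pair. Only centring, quantile normalization or leaving out 1 library could have reversed a direction. The count of members that passed was 0 in every fit without the block, including those that left out 1 library (with 0 to 27 at an unadjusted p under 0.05, the 27 without miR-Ctrl replicate 4) or both libraries of a number. With the replicate block 36 members rose, and 35 with a pseudocount of 0.1, 25 with libraries centred on their median, 24 with quantile normalization and 6 with no filter on low values. With the block and both libraries of 1 number left out, 10, 37, 9 and 0 members passed without numbers 1 to 4. The other mitosis genes higher were 0 without the block and with it 41, then 41, 24, 20 and 10 in the same order, and 7, 46, 6 and 1 without numbers 1 to 4. Of all tested genes, 12.4% rose with the block and 4.99% with the block and centred libraries. No such share is given here for the other settings with the block, so their counts cannot be set against all genes. Members and other mitosis genes called lower were 0 throughout by limma, with 0 members and at most 3 other mitosis genes at an unadjusted p under 0.05. A paired fit of 3 numbers has few residual degrees of freedom. Depth limits the members near 1 FPKM most, and the fragments behind each value are unknown.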
